A study of Mus musculus with 4 samples.

Results

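Fresh club cells and a sample labelled as club cells after 3 weeks with doxycycline were compared gene by gene, 3w+Dox minus Day0. Members are the genes with a named probe set whose brighter array of the pair reached 6.67, the median of all values on the 4 arrays of the series. They number 13109 of 23185 named genes, measured on 2 of 4 Affymetrix arrays. Day0 is RNA of club cells of adult mouse lung as isolated, without culture. The 3w+Dox array is labelled as club cells after 3 weeks in doxycycline medium (5% CO2, 37 °C), which the labels call Club-iPL cells. The other arrays are used only to show where a gene lay elsewhere. One is of 3w+Dox cells grown for 2 more weeks without the drug, called withdrawn cells here, and one is of Club-iPS cells, induced pluripotent cells. The labels name no strain, allele, transgene, promoter, sort, feeder layer or number of animals for any of them. Doxycycline is the drug widely used to switch on inducible transgenes. No array of club cells grown for 3 weeks without it was analysed here, so the drug, the culture and the time cannot be told apart.

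Club cells are secretory cells of the small airways. They make secreted defence proteins, carry much of the lung's cytochrome P450 activity and can divide to renew the airway lining. Gene families hold paralogs, copies that arose by duplication and often keep a biochemical activity while serving different cells, compartments or substrates. A family can therefore hold genes that move apart between 2 cell populations, which a list median does not show.

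Signals are log2 values from RMA, and every difference is 3w+Dox minus Day0 in log2 units, so 1 unit is 2-fold. With 1 array per population there is no replicate check, no error can be given and no p-value was computed. A gene is said to have risen or fallen when its signals differed at least 4-fold, which is 2 log2 units. By that rule 1000 of 13109 genes rose (7.63%) and 667 fell (5.09%), 12.7% in either direction, and these shares are the background for every list below. At 2-fold, 2010 rose (15.3%) and 1743 fell (13.3%), and at 8-fold 505 (3.85%) and 251 (1.91%). The differences had a median of -0.06, with quartiles of -0.54 and 0.47, and 9356 genes (71.4%) lay within 2-fold. Signals of different genes come from different probes and are not compared with each other, and precision is limited by having 1 array a side.

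Scatter at low signal can be read from the olfactory and vomeronasal receptor genes, which are rarely expressed outside sensory tissue. Of 1357 such genes, 49 (3.61%) were at least 2-fold apart and 3 (0.221%) at least 4-fold apart, with a standard deviation of 0.42 over genes. Their median signals were 3.67 at Day0 and 3.55 at 3w+Dox. Only 26 of them passed the filter, and 2 of those were called. The shares above therefore describe genes mostly under the filter and give no error rate for calls among kept genes. Genes at the edge of the rule were Sema3c (8.01 to 10.01) and Daam2 (4.94 to 6.94), just inside but under 4-fold once the arrays were centred on brighter genes (1.97 and 1.98), and Pianp (6.10 to 8.10) and Cygb (6.72 to 8.72), just outside. On the other side Gpam (11.41 to 9.41) and Cp (12.77 to 10.77) were inside, and 1700001L19Rik (7.92 to 5.92) and Ngef (9.74 to 7.74) outside.

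**Figure D1:**
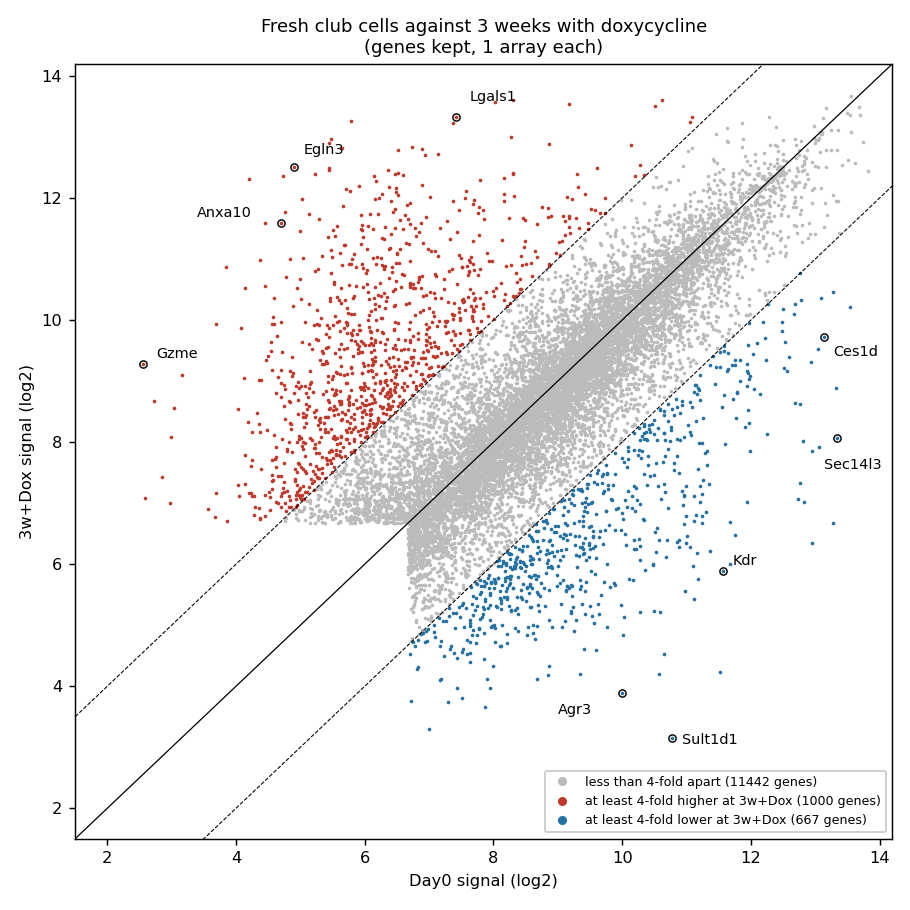
Log2 signal of each kept gene at Day0 (horizontal) and at 3w+Dox (vertical), 1 point per gene; the solid line marks equal signals and the dashed lines 4-fold differences. Of 13109 genes, 1000 lie above the upper dashed line and 667 below the lower one, and 9 genes are circled as examples. The empty corner at lower left is the filter at 6.67.

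Rises mostly started from faint genes. The genes that rose had a median signal of 6.07 at Day0 and 9.50 at 3w+Dox, followed by 9.38 after withdrawal and 7.50 in iPS cells. Their Day0 signal reached 6.67 in 296 (29.6%) and lay below the 25th percentile of all values in 170 (17%), where the size of a fold is not exact. Genes that fell went from a median of 9.35 to 6.25, with 7.25 after withdrawal and 6.04 in iPS cells, and 261 (39.1%) stayed at or above 6.67 at 3w+Dox. Differences of at least 5 log2 units were found for 114 genes that rose and 26 that fell.

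Markers of other cell types moved with the comparison. All 14 kept fibroblast markers of 16 rose, with their median signal going from 6.22 to 11.66, while Tcf21 and Gli1 were under the filter on both arrays. Of 14 kept macrophage and leukocyte markers of 21 measured, 13 rose, from a median of 5.97 to 9.39. They include Ptprc, the pan-leukocyte antigen (4.70 to 7.44), Adgre1, a surface antigen of macrophages (5.72 to 9.78), and C1qb, a complement chain (6.30 to 11.32). The B and T cell genes Ms4a1, Cd79a, Cd3e and Cd3g were under the filter on both arrays. Of 16 fibroblast markers, 13 were under the median of all values at Day0 and 2 at 3w+Dox. Of 21 macrophage and leukocyte markers, 18 and 7 were. Most kept markers of both lists thus passed the filter by their 3w+Dox signal alone, which favours rises among them. Without the filter the median difference was 5.12 for fibroblast markers and 2.75 for macrophage and leukocyte markers. Among kept markers it was 5.35 and 3.58. Smooth muscle and pericyte markers rose in 9 of 13, and all 14 kept ciliated cell markers fell, with a median of -3.27. Of 15 club cell markers 8 fell and 0 rose (median -2.83), and of 14 alveolar markers only Ager fell (11.59 to 9.50, median of the list -0.88), with Sftpc at 13.49 and 13.39. At Day0 the kept ciliated and alveolar markers had median signals of 9.29 and 11.88. The Day0 array thus carried signal of these markers beside those of club cells, and which cells gave it was not tested. Of 5 kept basal cell markers of 10, Snai2 and Aqp3 rose, while the defining genes Krt5 (6.20 and 5.93) and Trp63 (6.10 and 6.36) were under the filter. Mesothelial markers were kept in 5 of 10, with Msln and Upk1b up and Rspo1 down, and neuroendocrine markers in 6 of 8 measured, with Ncam1 up and Resp18 down. The part of these cell types in the gene differences below was not tested. On bulk arrays, fewer cells of a type and less RNA per cell cannot be told apart.

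The next ranks of the increases, 11 to 30, held mesenchymal genes together with several of other kinds. Ccdc80, a matrix protein, read 5.44 at Day0, 12.46 at 3w+Dox, 12.14 after withdrawal and 8.95 in iPS cells. Mmp13, a collagenase, read 3.85, 10.86, 11.56 and 9.85 on the same arrays, and S1pr3, a receptor for sphingosine 1-phosphate, 4.76, 11.76, 12.01 and 9.45. These 3 stayed high on the withdrawn array. S1pr1 (1.84) and S1pr2 (0.60), its sister receptors, did not reach 4-fold. Cnn1, a smooth muscle calponin, and Actg2, smooth muscle gamma actin, rose by 6.96 and 6.21. Matrix genes of the same ranks were Ogn (6.45), Mfap4 (6.44), Lum (6.38), Fstl1 (6.26), Loxl2 (6.16), Col1a1 (6.11) and Col1a2 (6.10). Prrx1, a mesenchymal transcription factor, rose by 6.34, Cdh11, a mesenchymal cadherin, by 6.22, and Penk, the precursor of enkephalin peptides, by 6.27. Ms4a7, a gene of macrophages, rose by 6.11. The fibroblast and macrophage markers that moved with these genes are given above.

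A pair of the same ranks was high on the 3w+Dox array alone. Anxa10, a calcium-dependent membrane binding protein found in stomach lining, read 4.69 at Day0, 11.59 at 3w+Dox, 6.15 after withdrawal and 4.43 in iPS cells. Sprr2a3, a cornified envelope precursor of stressed epithelia whose close copies may share its probes, read 5.14, 11.73, 6.97 and 4.77. Gzme, a granzyme, read 2.55, 9.28, 9.09 and 7.62, and its neighbour in the family Gzmd read 2.86, 7.43, 6.58 and 3.53. Gzmb, the granzyme of cytotoxic lymphocytes, stayed under the filter at 3.77 and 3.89, as did Gzma at 3.28 and 3.04.

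Ranks 11 to 30 of the decreases joined secretory and ciliated genes with receptors and channels. Fmo2, a flavin monooxygenase of lung, read 12.74 at Day0, 7.08 at 3w+Dox, 8.84 after withdrawal and 5.87 in iPS cells. Cyp2b10 and Cyp4b1, cytochromes P450, fell, with differences of -5.44 and -5.09, as did Sec14l3, a lipid transfer protein of airway cells (-5.27). C6, a component of the complement membrane attack complex, fell by 5.43. The tight junction claudins Cldn8 and Cldn10 fell, with differences of -5.42 and -5.15. Genes of multiciliated cells were Gmnc, the geminin-like factor that starts their program (-5.06), Rsph4a of the radial spoke (-4.99), Spata18 (-4.99) and Cabcoco1 (-5.38). Cckar, a cholecystokinin receptor, read 13.05, 7.92, 10.48 and 5.48, and Cdhr3, a cadherin of ciliated cells that rhinovirus C uses as its receptor, 11.94, 7.02, 9.43 and 5.85. Both lay between the other arrays in withdrawn cells. Cnksr2, a scaffold protein, differed by -5.25, Stat4, a cytokine-activated transcription factor, by -4.99 and Bmx, a non-receptor tyrosine kinase, by -4.81. Stat4 differed from its neighbours in the ranking in reading 9.14 in iPS cells beside 9.59 at Day0.

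Kdr, the main receptor for vascular endothelial growth factor and a gene best known from endothelium, read 11.57 at Day0, 5.89 at 3w+Dox, 6.12 after withdrawal and 6.04 in iPS cells. It was high on the Day0 array alone. Of the endothelial markers, 10 of 15 were under the filter on both arrays of the comparison, among them Pecam1 (5.50 and 5.56), Cdh5 (6.33 and 5.88), Tie1 (5.11 and 5.03) and Emcn (4.01 and 3.92). The 5 kept markers had a median of 0.65, which turned to -0.09 without the filter on dim genes. With a filter at 8.82 it was -5.68, which is the difference of Kdr, the only one called. Its paralog Flt1, a decoy-like receptor for the same growth factor, rose from 5.62 to 8.84, and the coreceptors Nrp2 and Nrp1 rose by 3.79 and 2.41. Vegfa, the ligand, read 10.85 and 11.02. Among all 22 kept PDGF, VEGF and angiopoietin genes 13 rose (59.1%) and 1 fell, with a median of 2.19. The rises were led by the PDGF receptors Pdgfrb (5.34) and Pdgfra (4.90) and the ligands Pdgfd (4.91) and Pdgfc (4.59). Pdgfra and Pdgfrb are also fibroblast markers.

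In all, 78 lists of families, pathways and markers name 2086 genes, of which 1975 were measured. The 56 families and 12 pathways hold 1366 kept genes, of which 244 rose and 100 fell. In 35 of 56 families genes were called in both directions, in 14 only higher, in 4 only lower and in 3 not at all. These counts depend on how many kept members a family holds and on the 7.63% and 5.09% of all kept genes. Unrelated genes grouped in lists of the same size were not counted, so 35 of 56 is not a result about paralogs. Below, each list is given by its calls among kept members and its median. A second median beside it is the one without the filter, over all measured members, or the one with the filter raised to 8.82. That is the 75th percentile of all values. It is given for family and pathway lists whose median moved by over 0.5 under either filter, often for 1 filter only. Small changes of sign are not all given. The sign also turned under 1 filter for the iron, serine, arginine, antioxidant, connexin, membrane serine protease, calcium channel and ribosomal paralog lists. With the filter at 8.82, serpins also moved to 1.84, gasdermins to 1.90, tubulins to 1.09 and carboxylesterases to -4.10.

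**Figure D2:**
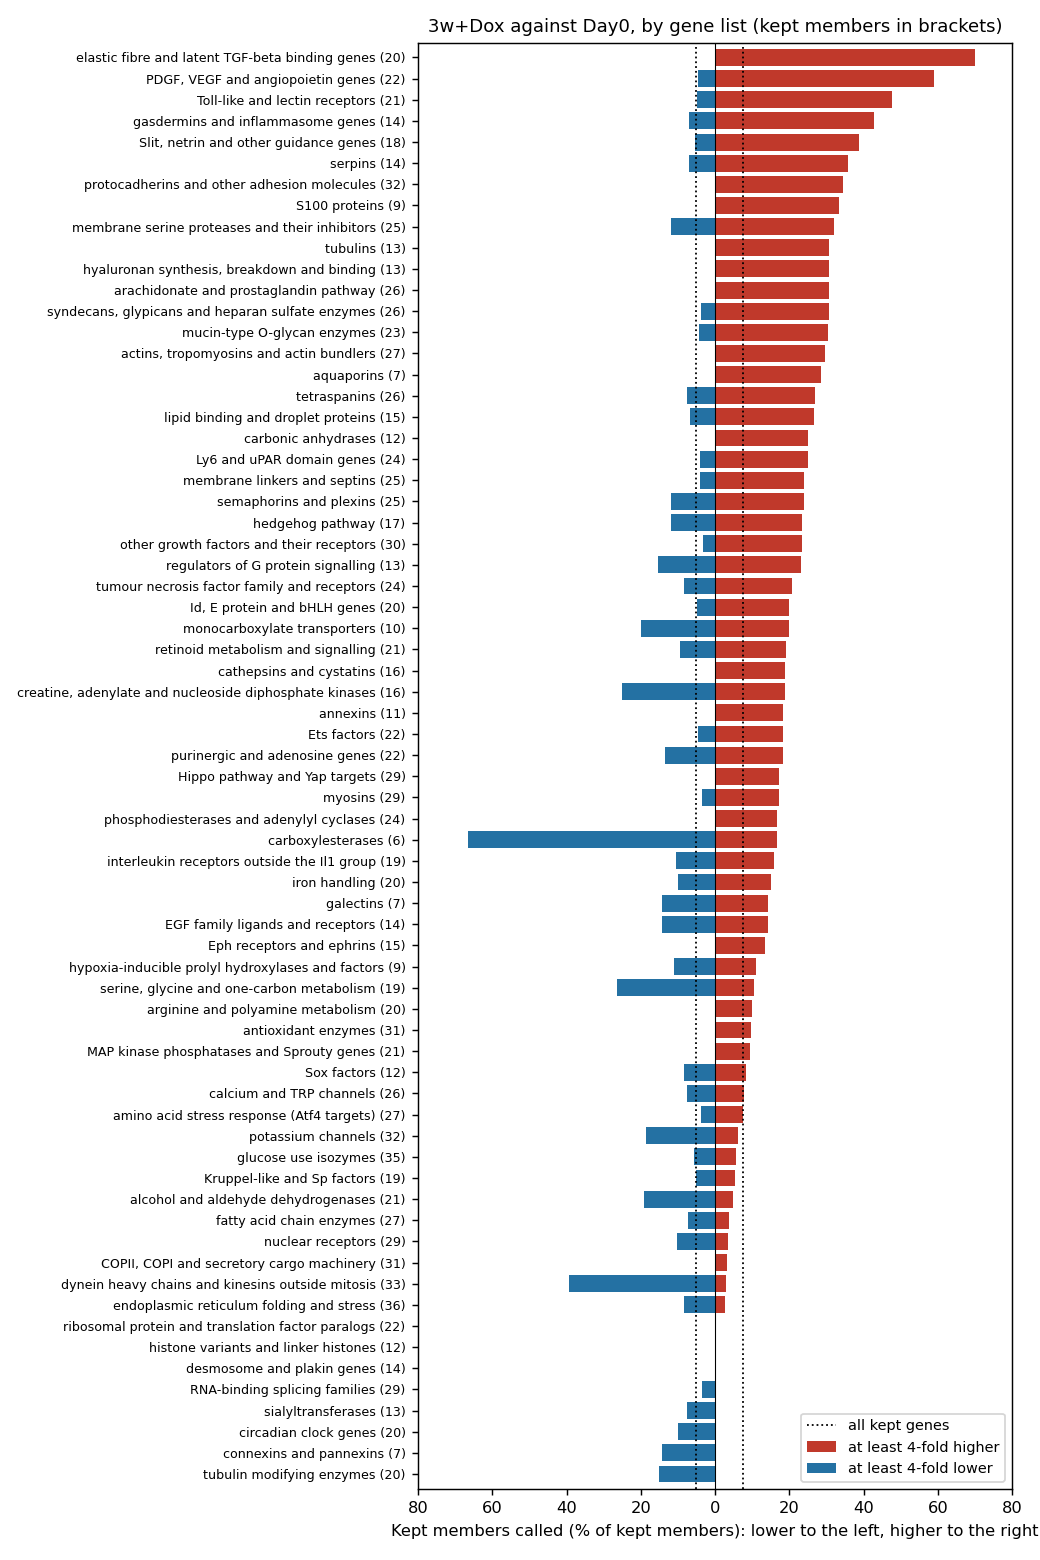
Share of kept members that rose (to the right) or fell (to the left) at least 4-fold at 3w+Dox, in percent, for 56 family and 12 pathway lists with the number of kept members in brackets; dotted lines mark 7.63% and 5.09%, the shares over all kept genes. Elastic fibre genes reach 70% higher, carboxylesterases 66.7% lower, and 3 lists have no call. A list of 6 to 10 genes moves by 10 percentage points or more with each gene.

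Kept carboxylesterases and alcohol and aldehyde dehydrogenases were called lower more often than higher. Of 6 kept carboxylesterases, which split ester bonds in drugs and lipids, 4 fell and 1 rose, with a median of -3.56. Over all 17 measured, 11 of them too dim to be kept, the median was -0.12. Ces1f, Ces1g, Ces1e and Ces1d differed by -6.12, -4.50, -3.71 and -3.41. Ces2g read 4.25 at Day0, 8.17 at 3w+Dox, 5.38 after withdrawal and 4.43 in iPS cells, so it was high at 3w+Dox only. Neighbouring Ces1 genes are close in sequence and may share probes. Alcohol and aldehyde dehydrogenases fell in 4 of 21 and rose in 1 (median -0.77). Aldh1a7, a club cell enzyme, went from 11.96 to 8.53, Aldh6a1 of valine breakdown from 11.45 to 8.95 and Aldh3b1 from 11.96 to 9.59, while Adh5 and Adh7 differed by less than 0.5.

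Of the folate enzymes, 3 were called. Aldh1l1, the cytosolic 10-formyltetrahydrofolate dehydrogenase, read 10.40 at Day0, 7.62 at 3w+Dox, 8.01 after withdrawal and 8.66 in iPS cells. Aldh1l2, its mitochondrial paralog, read 6.51, 8.95, 8.08 and 5.98 on the same arrays. The pair moved in opposite directions. Mthfd2, a mitochondrial folate enzyme, rose from 6.47 to 9.58. Its cytosolic relative Mthfd1 differed by -1.21, and mitochondrial Mthfd1l by 1.53. Neither reached 4-fold, nor did the serine hydroxymethyltransferases, cytosolic Shmt1 at -1.70 and mitochondrial Shmt2 at 0.91. In the pathway of serine, glycine and one-carbon metabolism 2 of 19 kept genes rose and 5 fell (26.3%), with a median of 0.04. Of the others that fell, 3 serve methionine and transsulfuration, namely Mat1a, which makes S-adenosylmethionine (10.97 to 7.13), Cbs, which makes cystathionine (9.59 to 6.11), and Gnmt, a glycine methyltransferase (-2.60).

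Amino acid stress genes, targets of the factor Atf4, had a raised median of 0.96 with few calls, 2 of 27 higher and 1 lower. Slc7a5, a transporter of large neutral amino acids, went from 9.46 to 11.59, Vldlr, a lipoprotein receptor, from 6.35 to 8.94, and Atf3, a stress-induced factor, fell from 11.94 to 9.28. Atf4 itself differed by less than 0.5. Arginine and polyamine genes rose in 2 of 20 (median -0.09), namely Ddah1, which breaks down methylated arginines that inhibit nitric oxide synthases (6.49 to 12.10), and Arg1, arginase (6.35 to 8.80). Ddah2, the paralog of Ddah1, and Odc1 differed by less than 0.5.

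Oxygen-sensing genes held a wide split. Egln3, an oxygen-dependent hydroxylase of the hypoxia-inducible factors, read 4.90 at Day0, 12.52 at 3w+Dox, 12.12 after withdrawal and 10.69 in iPS cells, a difference of 7.61. Its paralogs Egln1 (1.13) and Egln2 (-0.87) stayed under 4-fold. Epas1, the factor HIF-2 alpha, fell from 12.52 to 9.22, while Hif1a differed by 0.99. These were the only calls among 9 kept genes, with a median of 0.28. Glucose enzymes and transporters changed little as a list, with 2 of 35 up, 2 down and a median of 0.20. Slc2a3, a high-affinity glucose transporter, rose from 6.06 to 9.88 and Pfkfb3, which drives glycolysis, from 7.34 to 9.67, whereas Ldhb, the lactate dehydrogenase subunit of oxidative tissues, fell from 12.22 to 9.71 and Fbp1, of gluconeogenesis, from 7.79 to 5.10. Ldha, the other main subunit, differed by 0.45 and Slc2a1 by 0.92. Among monocarboxylate transporters, 2 of 10 rose and 2 fell (median -0.63, -1.56 with the filter at 8.82). Slc16a3, the lactate exporter of glycolytic cells, read 8.50 and 10.91 and Slc16a9 5.76 and 7.99, while Slc16a7 read 11.21 and 8.70 and Slc16a11 10.75 and 8.02. Slc16a1 differed by less than 0.5.

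Lipid lists differed in their share of calls. Fatty acid chain enzymes rose in 1 of 27, Cpt1c, a neuronal carnitine palmitoyltransferase (2.58), and fell in 2, the peroxisomal oxidase Acox2 (-3.03) and the thioesterase Acot1 (-2.27), with a median of -0.14. Scd1, Fads2 and Elovl5 differed by less than 0.5. Lipid binding and droplet proteins rose in 4 of 15 and fell in 1 (median -0.25, 0.10 with the filter at 8.82). Fabp4, a fatty acid carrier of fat cells and macrophages, rose by 3.33, Fabp7, the brain form, by 2.57, Lipa, lysosomal acid lipase, by 3.05 and Mgll, monoacylglycerol lipase, by 2.92. Lipg, endothelial lipase, fell by 2.27. In the arachidonate and prostaglandin pathway 8 of 26 kept genes rose (30.8%) and 0 fell, with a median of 0.77. Pla2g7, a phospholipase that inactivates platelet-activating factor, went from 4.57 to 10.05, Ptgfr, a prostaglandin F receptor, from 6.26 to 9.26, and Hpgds, a prostaglandin D synthase, from 4.66 to 7.44. Pla2g10 read 6.25 at Day0, 10.03 at 3w+Dox, 5.87 after withdrawal and 9.08 in iPS cells. Ptgs2, the inducible cyclooxygenase, was bright throughout, at 12.30 and 12.13.

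Retinoid genes rose in 4 of 21 and fell in 2 (median 0.04). The cellular retinoic acid binding proteins Crabp1 (5.78) and Crabp2 (2.15) rose, as did Rarres1, a gene induced by retinoic acid (4.63 to 9.75), and Dhrs9, a retinol dehydrogenase (4.97 to 8.99). Rbp4, the carrier of retinol in blood, fell from 11.08 to 8.57. Receptors Rara, Rarg, Rxra and Rxrb differed by less than 0.5. The list of antioxidant enzymes and related oxidases rose in 3 of 31 (9.68%, near the 7.63% of all kept genes, median -0.02, with a sign that another scaling turned). Sod3, the extracellular superoxide dismutase, went from 6.26 to 12.07, Gpx3, the secreted glutathione peroxidase, from 9.19 to 11.42, and Nox4, which makes hydrogen peroxide, from 5.57 to 9.13. Gsr, Txn1, Prdx1 and Gpx4 lay within 0.5. Iron genes rose in 3 of 20 and fell in 2 (median -0.08), with Slc11a1, an iron transporter of phagosomes, up by 2.80, Steap3 by 2.60 and Ltf, lactoferrin, by 2.19. Hp, haptoglobin, fell from 13.54 to 10.21 and Cp, ceruloplasmin, from 12.77 to 10.77.

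Energy-transfer kinases were called in both directions. Ak7 and Ak8, adenylate kinases of motile cilia, fell from 10.53 to 6.21 and from 10.63 to 7.68, and Nme9 and Nme5, nucleoside diphosphate kinases of cilia and sperm tails, from 10.16 to 5.74 and from 10.20 to 6.87. Mitochondrial Ak4 rose by 2.22, Ak5, of brain, from 4.90 to 8.80, and mitochondrial Nme4 from 6.59 to 8.70. That makes 3 of 16 higher and 4 lower (25%), with a median of 0.18 that was -0.22 without the filter and -0.65 with it at 8.82. All 14 ciliated cell markers fell with the first group. Carbonic anhydrases rose in 3 of 12 (median 0.44, -0.93 with the filter at 8.82), Car6, the secreted form, by 2.86, Car9, a hypoxia-induced surface form, by 2.78 and Car10 by 2.21, while Car2 and Car4 lay within 0.5.

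Protein folding genes of the endoplasmic reticulum gave few calls. Of 36 kept genes 1 rose and 3 fell (8.33%, against 5.09% of all kept genes), with a median of -0.08. Agr3, a disulfide isomerase of airway ciliated cells, fell to 3.89 at 3w+Dox, a difference of -6.11, and read 7.15 after withdrawal and 2.85 in iPS cells. Agr2, its neighbour that helps to fold mucins, went from 9.79 to 7.23, and Creb3l4, a membrane-bound transcription factor, from 8.44 to 6.23. Ero1a, an oxidase that makes disulfide bonds, rose from 9.43 to 12.06. Xbp1, Ern1, Hyou1 and Dnajc3, core genes of the unfolded protein response, lay within 0.5. Cargo machinery of COPI and COPII vesicles had 1 call in 31 kept genes and a median of 0.09. Kdelr3, a receptor that retrieves resident proteins, rose from 9.12 to 11.40.

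Mucin-type O-glycan enzymes rose in 7 of 23 (30.4%) and fell in 1, with a median of 0.82. Among the transferases that start such chains Galnt17 rose by 5.38 and Galnt10 by 3.52, while Galnt5 fell from 9.43 to 5.71, and Galnt4, Galnt11 and Galnt12 lay within 0.5. The branching enzymes Gcnt3 and Gcnt4 rose by 3.93 and 2.86. Sialyltransferases were called once in 13, St3gal6 at -2.28 (median -0.32). Of 7 kept galectins, lectins that bind galactosides, Lgals1 read 7.42 at Day0, 13.34 at 3w+Dox, 13.42 after withdrawal and 12.37 in iPS cells, and Lgals12 read 11.98, 7.85, 7.72 and 6.13. The median of the galectins was 0.21, and -0.01 without the filter. Heparan sulfate proteoglycans and their enzymes rose in 8 of 26 (30.8%) and fell in 1 (median 0.96). The endosulfatase Sulf1 rose by 5.54, the glypicans Gpc6 and Gpc3 by 5.35 and 4.02 and Sdc3 by 5.01, while Sdc1 and Sdc4, the epithelial and ubiquitous syndecans, lay within 0.5 and Extl1 fell by 2.69. Hyaluronan genes rose in 4 of 13 (median 1.61, 0.49 without the filter), led by Cemip, which starts its breakdown (5.68), the synthase Has2 (5.26) and the binding proteins Vcan (5.17) and Tnfaip6 (2.80). Cd44, the receptor, lay within 0.5. Elastic fibre and latent TGF-beta binding genes rose in 14 of 20 (70%) and fell in 0, with a median of 3.64 (2.81 without the filter), led by Mfap4 (6.44), Fbln2 (6.09), Nid1 (5.61) and Mfap5 (5.35). These matrix lists moved with the fibroblast markers, whose part was not tested.

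Among cytoskeletal families, actins, tropomyosins and bundlers rose in 8 of 27 (29.6%) and fell in 0, with a median of 0.80, led by Cnn1, Actg2, Acta2 (7.36 to 13.23) and Fscn1, fascin (5.94 to 11.73). Actb, Tagln2 and Tpm3 lay within 0.5. Myosins rose in 5 of 29 and fell in 1 (median 0.61, 0.02 without the filter). The light chain Myl9 rose by 5.77, Myh10, a nonmuscle heavy chain, from 6.56 to 10.54, Myh11 of smooth muscle from 5.94 to 8.88 and Myo7a from 6.35 to 8.78. Of the class V motors that carry vesicles, Myo5a read 6.75 at Day0, 8.98 at 3w+Dox, 9.77 after withdrawal and 9.05 in iPS cells, and Myo5c, the form of gland and airway epithelia, read 11.37, 9.26, 9.13 and 7.85. Myo5b, the third, differed by -1.06. Smooth muscle markers rose in 9 of 13 beside the contractile genes.

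Tubulins rose in 4 of 13 (30.8%) and fell in 0 (median 0.41, -0.02 without the filter), with Tubb6 (3.21), neuronal Tubb3 (2.93), Tubb2a (2.76) and Tubg2 (2.31), while Tuba1a and Tuba4a lay within 0.5. Enzymes that modify tubulin fell in 3 of 20 and rose in 0 (median -0.65). Agbl2 and Agbl4, which trim glutamates, differed by -3.24 and -2.02 and Ttll6, which adds them to axonemes, by -2.60. Dynein heavy chains and non-mitotic kinesins fell in 13 of 33 (39.4%) and rose in 1, with a median of -0.89. The axonemal dyneins Dnah3, Dnah6, Dnah7a and Dnah5 differed by -3.78, -3.71, -3.69 and -3.30, and Kif26b, a kinesin-like protein, rose by 2.52. The subunits of the intraflagellar motor Kif3a and Kif3b lay within 0.5. These falls moved with the ciliated cell markers, whose part was not tested.

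Membrane linkers and septins rose in 6 of 25 (24%) and fell in 1 (median 0.77). Flnc, the muscle filamin, rose by 4.56, Flna by 2.87 and Ank2 by 2.99. Of the band 4.1 relatives, Epb41l3 rose from 5.41 to 9.93 and Epb41l2 from 7.65 to 10.23, while Epb41l5 fell from 10.49 to 8.36.

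Annexins rose in 2 of 11 (median 0.53), Anxa10 and Anxa9 (5.61 to 9.82), with Anxa5, Anxa6, Anxa7 and Anxa11 within 0.5. S100 proteins rose in 3 of 9 (33.3%, median 0.46), S100a4 by 3.78, S100a6 by 2.88 and S100a10 by 2.27. Aquaporins rose in 2 of 7 (median -0.23, 1.66 with the filter at 8.82), namely Aqp3 (6.84 to 9.78) and Aqp1 (6.89 to 9.12). Of 7 kept connexins and pannexins only Gjb6 was called, going from 9.20 to 5.20 (median -0.07), and Gjb2, its neighbour and partner, lay within 0.5. Desmosome and plakin genes had 0 calls in 14 (median -0.17), the largest differences being 1.86 for Plec and 1.67 for Dsc2.

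Tetraspanins rose in 7 of 26 (26.9%) and fell in 2 (median 0.22). Upk1b, a uroplakin, read 8.76 at Day0, 11.86 at 3w+Dox, 8.20 after withdrawal and 5.67 in iPS cells, and Upk1a read 10.58, 6.39, 6.82 and 7.45. Upk2, a uroplakin of another fold that partners Upk1a in bladder, fell with it, from 10.04 to 6.50. Tspan8 rose by 3.25, Tspan5 from 7.07 to 10.07 and Cd53, a leukocyte tetraspanin, by 3.66, Tspan12 fell from 10.53 to 8.03, and Cd9, Cd63 and Cd151 lay within 0.5. Genes with Ly6 and uPAR domains rose in 6 of 24 (25%) and fell in 1 (median 0.33). Psca read 5.48 and 11.14, the secreted Slurp1 7.14 and 12.72, Plaur, the urokinase receptor, 7.79 and 10.37, and Lypd6 10.01 and 6.75. Other adhesion molecules rose in 11 of 32 (34.4%) and fell in 0 (median 1.09), led by Thy1 (5.98), Ncam1 (5.23), Pcdh7 (4.87) and Chl1 (4.42), with F11r and Cd24a, of epithelia, within 0.5. Thy1 is a fibroblast marker.

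In the EGF family 2 of 14 rose and 2 fell (median -0.61, 0.04 with the filter at 8.82). The receptor Egfr went from 7.70 to 10.83 and its relative Erbb4 from 7.68 to 4.93. Of the ligands, Ereg, epiregulin, went from 5.97 to 9.62 and Btc, betacellulin, from 9.09 to 6.93. Other growth factors and receptors rose in 7 of 30 (23.3%) and fell in 1 (median 0.81), with the BMP antagonist Grem1 (4.99), the collagen receptor Ddr2 (4.60), Hgf (3.92) and Axl (7.03 to 11.13) up and Tyro3, of the same receptor family as Axl, down (9.56 to 7.35). Ddr1, the epithelial collagen receptor, lay within 0.5. Hedgehog genes rose in 4 of 17 and fell in 2 (median 1.06, 0.33 without the filter). The ligand Shh read 10.18 at Day0, 6.26 at 3w+Dox, and its releasing factor Scube2 8.92 and 6.90. On the receiving side the coreceptors Gas1 (2.89) and Boc (2.69), the transcription factor Gli2 (3.07) and the decoy Hhip (2.41) rose, while the receptor Ptch1 lay within 0.5 and Gli1, a direct target, was under the filter (5.77 and 5.60). Hippo pathway and Yap target genes rose in 5 of 29 and fell in 0 (median 0.57), led by Vgll3 (4.15), Axl, Ccn2 (8.86 to 12.89) and Ankrd1 (3.19).

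Genes first known from axon guidance rose more often than they fell. Semaphorins and plexins rose in 6 of 25 (24%) and fell in 3 (median 0.53). The secreted Sema3d rose by 4.66 and Sema7a, Sema5a and the receptor Plxnc1 by 3.51, 2.67 and 2.35, whereas Sema4f, Sema3e and Plxnb1 fell, with differences of -3.28, -2.20 and -2.87. Slit, netrin and related genes rose in 7 of 18 (38.9%) and fell in 1 (median 1.01, 1.75 with the filter at 8.82), with the ligands Slit3 (5.55) and Slit2 (3.98), Flrt2 (4.91) and the netrin receptor Unc5b (4.45) up and Lrrn3 down (-2.38). Eph receptors and ephrins rose in 2 of 15 (median 0.83, 0.12 without the filter), Epha3 by 4.37 and Epha4 by 2.50, with Epha2 and Efna1 within 0.5.

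Purinergic and adenosine genes rose in 4 of 22 and fell in 3 (median -0.13). P2ry6, a uridine nucleotide receptor, rose by 3.40, the nucleotidases Enpp3 and Nt5e by 3.32 and 2.76 and the nucleoside transporter Slc29a1 by 2.66. Entpd3, another nucleotidase, differed by -2.97 and the ATP-gated channels P2rx6 and P2rx2 by -2.31 and -2.05. P2rx4, P2rx5 and P2rx7 lay within 0.5. Phosphodiesterases and adenylyl cyclases rose in 4 of 24 and fell in 0 (median 0.74), namely Pde10a (2.78), Pde9a (2.70), Adcy3 (2.58) and Pde5a (2.26). MAP kinase phosphatases and Sprouty genes rose in 2 of 21 (median 0.13, 0.68 with the filter at 8.82), Dusp10 by 3.27 and Spry4 by 3.18. Regulators of G protein signalling rose in 3 of 13 and fell in 2 (median 1.35, 0.35 without the filter), with Rgs4 (4.70), Rgs5 (3.44) and Rgs10 (2.10) up and Rgs22 (-3.61) and Rgs11 (-2.08) down.

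Potassium channels fell in 6 of 32 (18.8%), against 5.09% of all kept genes, and rose in 2 (median -0.47, -3.27 with the filter at 8.82). Kcnj13, an inward rectifier of transporting epithelia, read 11.75 at Day0, 6.48 at 3w+Dox, 7.77 after withdrawal and 4.96 in iPS cells. Kcnj15, another inward rectifier, fell from 10.95 to 6.97, Kcnk2, a mechanosensitive leak channel, from 11.25 to 7.98 and Kcnrg, a regulator of channel assembly, from 10.11 to 5.75. Kcnma1, the large-conductance calcium-activated channel of smooth muscle, rose from 5.22 to 7.48, and Kcnab1 from 4.82 to 6.94. Kcnq1 and Kcnj11 lay within 0.5. Calcium and TRP channels rose in 2 of 26 and fell in 2 (median 0.01, with a sign that another scaling turned). Cacna1g, a T-type calcium channel, rose by 3.81 and Trpv2 from 5.48 to 7.86, while Trpv4, an osmosensitive channel, fell from 8.39 to 6.25 and the magnesium channel Trpm6 from 11.07 to 8.12. Of the plasma membrane calcium pumps, Atp2b2 read 10.02, 5.14, 5.52 and 6.26 on the Day0, 3w+Dox, withdrawn and iPS arrays while Atp2b4 rose by 2.68, to stand at 8.64 after withdrawal and 8.09 in iPS cells. Atp2b1, the common form, read 10.91 on both arrays of the comparison.

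Transcription factor families held single members that moved far. Nuclear receptors fell in 3 of 29 and rose in 1 (median -0.47). Esrrg (-2.59), Ppara (-2.43) and the thyroid hormone receptor Thrb (-2.11) fell, and Pgr, the progesterone receptor, went from 4.78 to 6.86. Circadian clock genes fell in 2 of 20 and rose in 0 (median -0.62), Per2 from 10.34 to 8.06 and Tef from 10.09 to 7.93, with Cry1 and Npas2 within 0.5. Of 12 kept Sox factors Sox9, of airway progenitors and cartilage, went from 7.18 to 9.47 and Sox2, of airway epithelium and pluripotent cells, from 10.65 to 8.44 (median 0.38, 1.55 with the filter at 8.82). Sox2 read 8.85 after withdrawal and 12.07 in iPS cells. Of 19 kept Kruppel-like and Sp factors Klf4 went from 8.60 to 10.72, with 9.44 after withdrawal and 10.67 in iPS cells, and Klf15, a metabolic regulator, from 10.48 to 5.99 (median 0.07). Probe positions were not examined, so an added copy of a factor, if present, could not be told from the cell's own gene. Ets factors rose in 4 of 22 and fell in 1 (median 0.28). Elf5, a factor of secretory epithelia, fell from 11.06 to 6.28, Spi1, the macrophage factor PU.1, rose from 6.15 to 9.50, Fli1 from 5.55 to 8.81, Elf4 by 2.37 and Elk3 by 2.16. The 13 macrophage markers that rose moved with Spi1. Id, E protein and bHLH genes rose in 4 of 20 and fell in 1 (median 0.39, -0.14 without the filter), with Id3 (3.32) and the mesenchymal factors Twist2 (3.06), Scx (2.25) and Twist1 (2.11) up and the Notch target Hey2 down (-2.16). Tcf3, Tcf12 and Id2 lay within 0.5.

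Families that act in most cells gave few calls. RNA-binding splicing families had 1 call in 29, Rbm24, a muscle and ear splicing factor, at -2.89 (median 0.19). Ribosomal protein and translation factor paralogs had 0 calls in 22 (median -0.03), the largest differences being 1.62 for Eif5a2 and -1.18 for Eef1a1. Histone variants had 0 calls in 12 (median -0.18), with H2aj at -1.61 and H2az2 at -0.79.

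Membrane serine proteases and serpins held calls both ways, while cathepsins and cystatins held only rises. Membrane serine proteases and their inhibitors rose in 8 of 25 (32%) and fell in 3 (median 0.07). Prss23 rose by 4.79, Plat, tissue plasminogen activator, by 4.57, Htra1 by 4.45 and the coagulation inhibitor Tfpi by 4.22. Prss8, prostasin, which activates epithelial sodium channels, fell from 12.48 to 9.97, Tmprss13 from 9.35 to 5.60 and the inhibitor Spink5 from 8.34 to 5.97, with St14 and Spint2, of the same epithelial cascade, within 0.5. Serpins rose in 5 of 14 (35.7%) and fell in 1 (median 1.21, turning to -0.18 over all 39 measured, of which 25 were dim). Serpina3n went from 6.48 to 12.40, Serpinb5, maspin, from 4.56 to 9.18, Serpinb9b from 6.10 to 9.63 and Serping1, the C1 inhibitor, from 7.31 to 10.81, while Serpind1, heparin cofactor, went from 7.73 to 4.70. Cathepsins and cystatins rose in 3 of 16 (median 0.66), with Ctse, an aspartic protease of stomach and immune cells, from 6.48 to 12.17, Ctss, of macrophages, by 2.97 and Ctsk by 2.20. Ctsb, Ctsh and Napsa lay within 0.5.

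Among immune genes, Toll-like and lectin receptors rose in 10 of 21 (47.6%) and fell in 1 (median 0.91, 0.17 with the filter at 8.82). Macrophage and leukocyte markers rose in 13 of 14 beside them, and their part was not tested. Clec4n, a fungal lectin receptor, rose by 4.48, the mannose receptors Mrc1 and Mrc2 by 4.05 and 3.91 and Tlr8, an RNA sensor, by 3.86. Tlr13, Tlr6 and Tlr7 also rose, by 3.50, 2.65 and 2.46. Tlr5, the flagellin receptor of epithelia, read 10.66 at Day0, 7.78 at 3w+Dox, 7.66 after withdrawal and 6.52 in iPS cells, and Tlr3 and Tlr4 lay within 0.5. Gasdermin and inflammasome genes rose in 6 of 14 (42.9%) and fell in 1 (median 1.27, 0.59 without the filter). Gsdmc2, a gasdermin of epithelia, read 4.33, 8.47, 3.38 and 3.59, high at 3w+Dox alone, though its near copies may share probes. Aim2, a DNA sensor, rose by 3.80, Il18 by 2.72 and Il1rn by 2.51, Casp4 fell by 2.09, and Gsdmd and Il33 lay within 0.5. Tumour necrosis factor ligands and receptors rose in 5 of 24 and fell in 2 (median 0.89, 0.13 without the filter). Tnfrsf11b, osteoprotegerin, rose by 4.77, Tnf by 3.97, Eda2r by 3.43 and Tnfrsf12a by 2.71, and Edar, the receptor for the other ectodysplasin form, fell by 2.21 and Tnfsf10 fell by 2.02. Interleukin receptors rose in 3 of 19 and fell in 2 (median 0.62, -0.68 with the filter at 8.82), with Il4ra (3.20), Csf1r (2.46) and Il17rd (2.18) up and Il6ra (-2.64) and Il17re (-2.21) down.

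Because no protein sequences were used here, paralogs outside the lists were found by symbol, a rule chosen after the values had been seen. Genes that share a symbol stem, the letters before their last number, and of which at least 2 were called make 194 stems. In 104 of them every called gene rose, in 36 every called gene fell, and in 54 genes were called in both directions. A shared stem does not always mean a shared origin. As for the families, unrelated genes grouped in the same sizes were not counted beside these numbers.

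**Figure D3:**
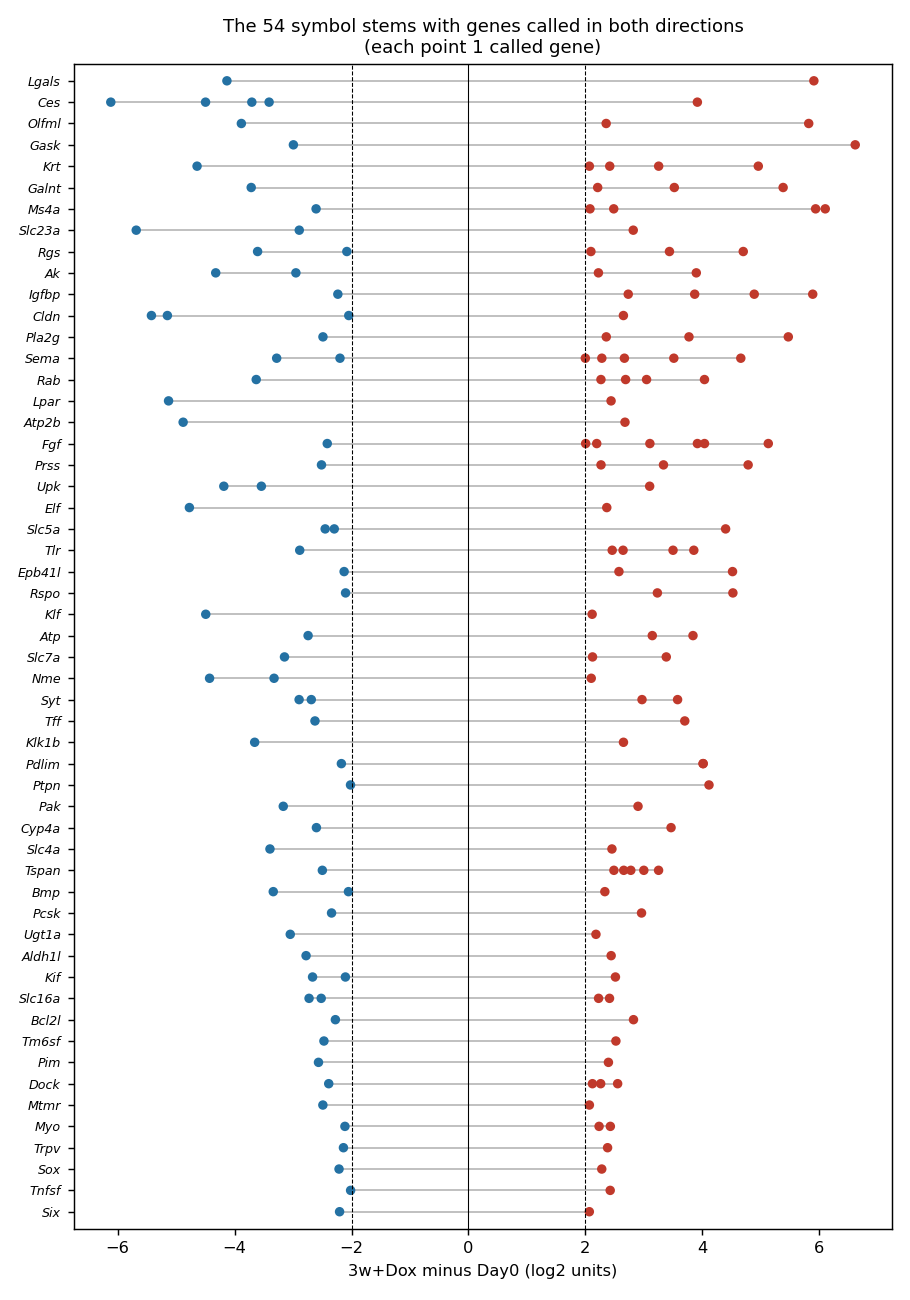
Difference in log2 units (3w+Dox minus Day0) of each called gene in the 54 symbol stems with calls in both directions, ordered by the distance between the extremes; red points rose, blue points fell, and dashed lines mark 4-fold. The galectin stem spans -4.13 to 5.91, the widest distance of the 54.

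Vitamin C transporters and lysophosphatidic acid receptors were among the wide splits. Slc23a1, a sodium-coupled ascorbate carrier of epithelia, read 11.68 at Day0, 5.99 at 3w+Dox, 6.78 after withdrawal and 7.02 in iPS cells, and Slc23a2, the more general carrier, read 11.98, 9.09, 9.27 and 8.98. Slc23a3, their relative that does not carry ascorbate, read 6.31, 9.13, 6.83 and 6.03. Both ascorbate carriers fell and the third gene was high at 3w+Dox alone. Lpar3, a receptor for lysophosphatidic acid, read 11.10, 5.97, 6.78 and 5.31, and Lpar4 read 6.94, 9.38, 9.49 and 8.36. Lpar1 and Lpar6 differed by 1.19 each. Gask1b, a Golgi-associated kinase relative, read 4.37, 10.98, 11.26 and 9.01 and Gask1a 10.05, 7.06, 7.76 and 6.02. Olfml3, an olfactomedin-like matrix protein, rose by 5.82 and Olfml2a fell by 3.88.

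Signalling ligands split in the same way. Of the fibroblast growth factors, 6 rose, led by Fgf7 (5.13), Fgf2 (4.04) and Fgf10 (3.92), while Fgf1 fell from 11.76 to 9.34. Of the R-spondins, which strengthen Wnt signals, Rspo3 rose from 5.54 to 10.07 and Rspo2 from 5.55 to 8.78, and Rspo1 fell from 9.23 to 7.13. Their receptors Lgr5, a stem cell marker, and Lgr4 rose, Lgr5 from 5.78 to 10.91 and Lgr4 from 7.51 to 10.32, while Lgr6 differed by 0.13. Bmp6 rose by 2.33 while Bmp3 fell by 3.34 and Bmp5 fell by 2.05. Insulin-like growth factor binding proteins Igfbp3, Igfbp4, Igfbp2 and Igfbp7 rose by 5.89, 4.89, 3.87 and 2.73 and Igfbp6 fell by 2.23. The kinases Pim1 and Pim3 moved apart, from 7.14 to 9.54 and from 10.77 to 8.20.

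Epithelial structure genes also diverged. Among claudins, Cldn1 rose from 5.92 to 8.57 while Cldn8, Cldn10 and Cldn22 fell, and the lung claudin Cldn18 differed by 0.37. Among keratins, Krt13, of stratified and transitional epithelia, read 5.96 at Day0, 10.92 at 3w+Dox, 5.54 after withdrawal and 5.43 in iPS cells. Krt20 read 5.72, 8.97, 6.56 and 5.65, and Krt23 9.98, 5.34, 5.38 and 5.08. Krt8 and Krt18, keratins of simple epithelia, differed by 0.27 and -0.39. Krt6a and Krt6b, of stressed epithelia, rose by 2.07 and 2.42 and are near-identical, so their signals are uncertain. The bicarbonate transporter Slc4a5 fell from 12.57 to 9.17 and Slc4a11 rose from 6.37 to 8.82. The sodium-coupled carriers Slc5a1, for glucose, and Slc5a8, for short fatty acids, fell, with differences of -2.45 and -2.30, and Slc5a7, for choline, rose from 5.27 to 9.67.

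**Figure D4:**
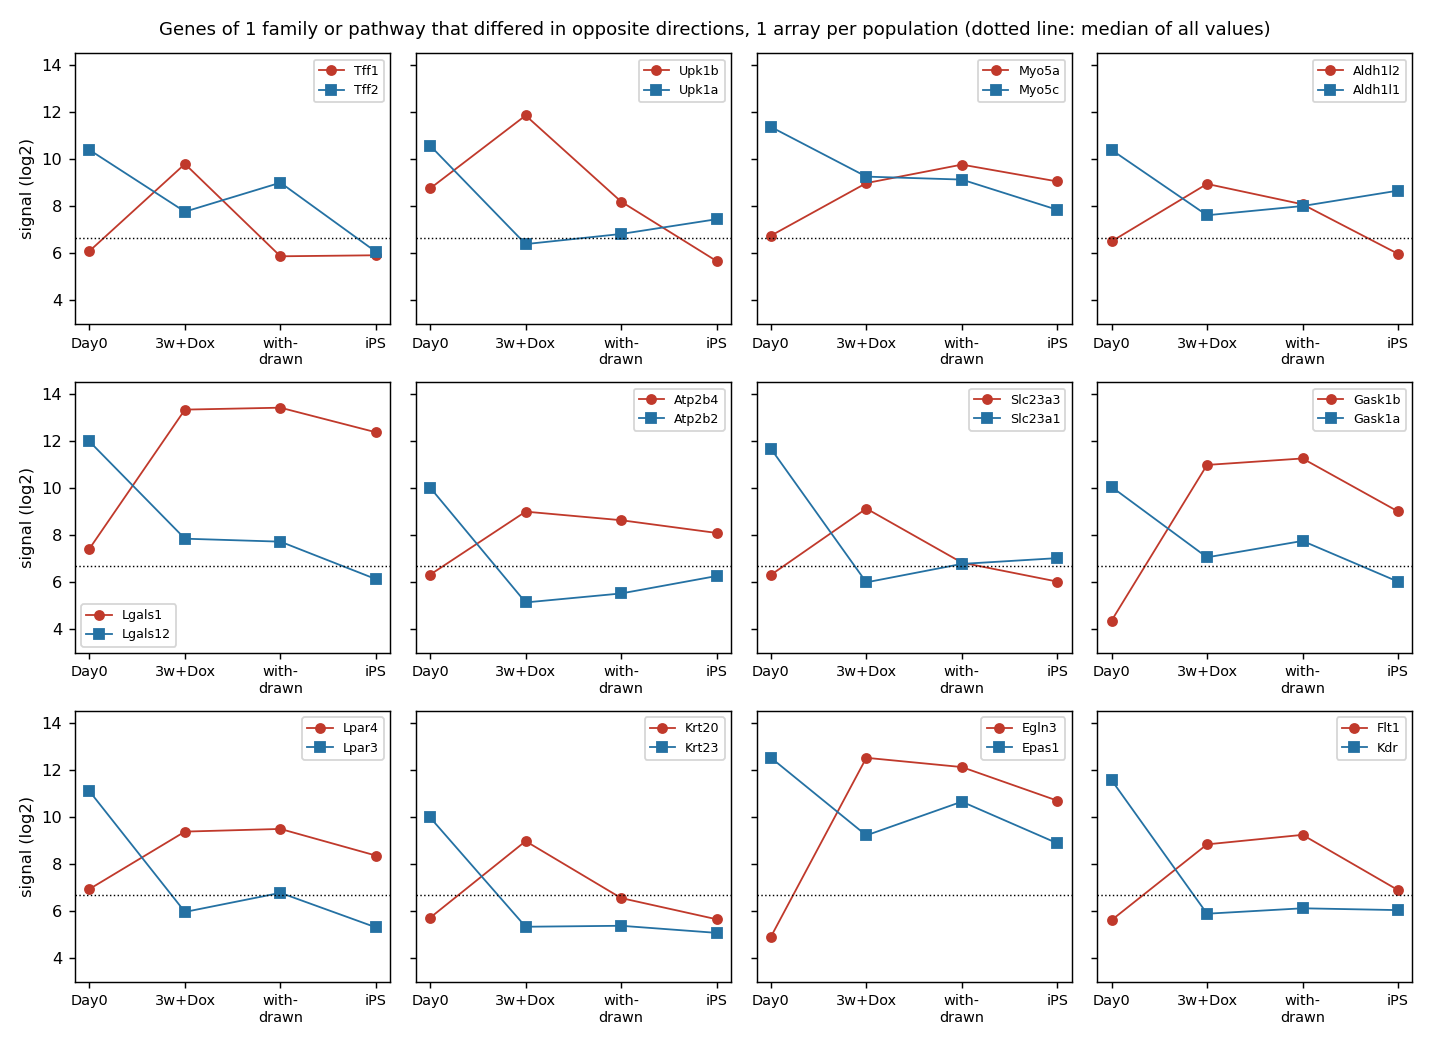
Log2 signal (vertical) on the Day0, 3w+Dox, withdrawn and iPS arrays, 1 value each, for 12 pairs of genes of a family or pathway; red circles mark the gene that rose at 3w+Dox and blue squares the one that fell, and the dotted line is 6.67. Each line is to be read along its own course, since levels of different probes are not comparable. Tff1, Upk1b, Slc23a3 and Krt20 peak on the 3w+Dox array, while Lgals1, Gask1b and Egln3 stay high on the withdrawn array.

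Neighbouring genes that were both called moved together more often than apart. Over 8569 pairs of genes that are neighbours in the RefSeq table (GRCm38.p6) and both kept, both rose in 84, both fell in 41, and 51 pairs moved in opposite directions. Over all kept genes 7.63% rose and 5.09% fell. Pairs of unrelated genes were not counted, so the 51 are a listing and not an excess. Only 4 of these 51 share a stem. Tff1, a trefoil peptide of stomach mucosa, read 6.10 at Day0, 9.80 at 3w+Dox, 5.87 after withdrawal and 5.92 in iPS cells, and its neighbour Tff2 went from 10.40 to 7.77. The others were Krt20 with Krt23, Myo5a with Myo5c, and Ugt1a7c (2.18) with Ugt1a6b (-3.05), 2 forms of a locus with shared exons whose signals are therefore uncertain. Most of the remaining pairs join unrelated genes, such as the lysyl oxidase Lox (7.48) beside Zfp474 (-4.04), Snai2 (5.65) beside Efcab1 (-3.37), Has2 (5.26) beside Sntb1 (-2.80) and Tbx15 (5.56) beside Spag17, a gene of the ciliary central pair (-3.01).

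Promoters of the genes called were searched for 6 motifs with known readers, on both strands of the 250 bases before each RefSeq start (GRCm38.p6), a step added after the values had been seen. GTTGCC, the core of the X-box that RFX factors of ciliated cells read, was in 18.4% of 642 windows of genes that fell, 7.36% of 910 windows of genes that rose, 10.6% of 11543 windows of other kept genes and 10.4% of all 32851 windows. TGACTCA, the AP-1 element, which reads TGAGTCA on the other strand, was in 4.05%, 6.59%, 3.19% and 4.46% of the same sets. ACGTG, the core of the hypoxia response element, was in 14.8%, 15.3%, 21.7% and 16.6%, so it was less frequent in both called sets than in other kept genes. TGTTTAC, a forkhead site, was in 4.36%, 2.31%, 2.04% and 3.17%. The CArG box of serum response factor was in 0.935%, 1.87%, 1.17% and 1.47%, and the full X-box in 0.935%, 0 windows, 0.511% and 0.374%. GTTGCC and the full X-box can overlap. Windows were found for 714 of the genes that rose and 521 of those that fell. The base composition of the sets was not matched, and a gene can have several windows.

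**Figure D5:**
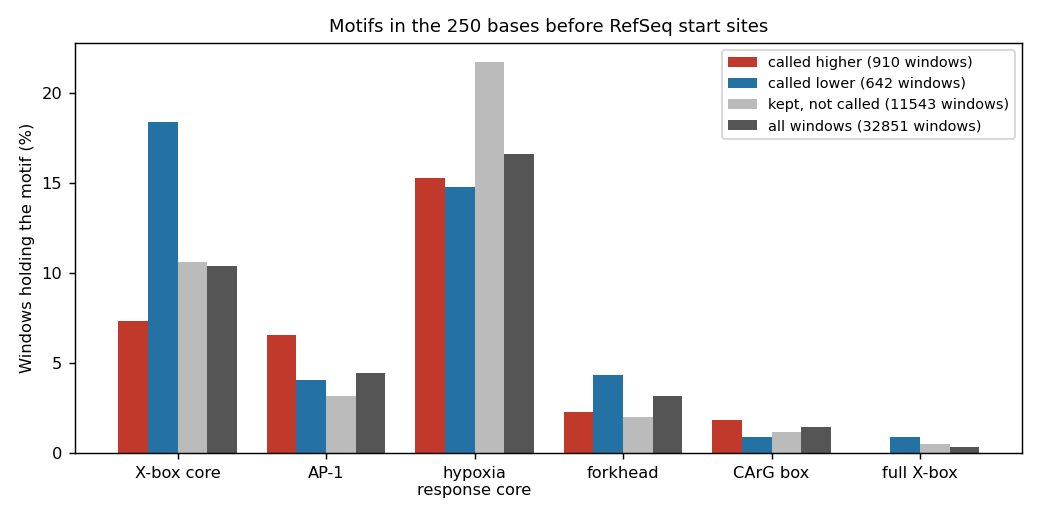
Share of windows (vertical, percent) that hold each of 6 motifs in the 250 bases before RefSeq start sites, for genes that rose, genes that fell, other kept genes and all windows. The X-box core bar of genes that fell stands at 18.4% against 7.36% for genes that rose, and the AP-1 bar of genes that rose at 6.59% against 3.19% for other kept genes.

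Of the 30 largest decreases 24 had a window, and at least 2 of those held GTTGCC. The element was in 18.4% of windows of all genes that fell and in 10.4% of all windows. No excess among the 24 genes is claimed, and the 2 matches shown are examples only. Both lie at genes of ciliated cells. They are shown with up to 40 bases on each side of the match, ending at the start site where it is nearer. Capitals mark the match. Sntn lies at chr14:13670770-13670855 on the plus strand and Cdhr3 at chr12:33092876-33092921 on the minus strand, where the element stands in reverse.
Sntn: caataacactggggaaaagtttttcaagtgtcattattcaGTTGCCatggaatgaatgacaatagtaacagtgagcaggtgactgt
Cdhr3: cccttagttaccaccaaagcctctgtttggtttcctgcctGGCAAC
The match of Sntn lies 66 bases before the start and that of Cdhr3 6 bases before it, counted from the first base of the match as written.

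Of the 30 largest increases 18 had a window, and at least 2 of those held TGACTCA. The 2 matches shown in the same way belong to a collagenase and an annexin and are examples only. Mmp13 lies at chr9:7272439-7272513 on the plus strand and Anxa10 at chr8:62123194-62123249 on the minus strand, where the element stands in reverse. Capitals mark the match.
Mmp13: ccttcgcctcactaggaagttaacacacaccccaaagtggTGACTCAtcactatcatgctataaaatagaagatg
Anxa10: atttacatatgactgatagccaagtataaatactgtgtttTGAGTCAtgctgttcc
A match describes these letters only and was not tested as a binding site.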

How the data were processed

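RNA of 4 mouse cell populations was measured on 1 Affymetrix array each, and groups were taken from the sample titles. Total RNA was extracted with RNeasy columns and prepared with an Ambion WT kit, per the labels' protocols. The authors deposited log2 signals made with RMA by the affy package in R 3.0.2, per the submitters' processing notes. RMA quantile normalizes the arrays, so a change shared by most genes cannot be seen. The sources used here give neither the chip annotation's version nor a genome build, so array genes carry no coordinates.

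Of 25206 probe sets, 23185 had 1 symbol in the platform annotation, 0 had several and 2021 had none. All 23185 gene IDs were in the RefSeq table (GRCm38.p6), with 0 symbols changed, and there were 0 columns of other samples. Promoter windows come from RefSeq, GRCm38.p6. Values were used as deposited. With 1 array per population no test was possible and no error could be estimated. Kept genes, the median filter at 6.67 and the 4-fold rule are described in the text.

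The members and lists were chosen with earlier results of these data known. Named genes are ranks 11 to 30 each way among named protein-coding genes without predicted, clone-named, chemoreceptor and antigen receptor genes, up to 4 called members of each list each way, members within 0.5 log2 units as unmoved paralogs, the genes nearest the threshold and the marker lists. Genes named outside this rule, among them relatives of a called gene and all members of symbol stems, were chosen after their values were seen. The lists name 2086 genes, and 1975 have a probe set (8 matched by an older symbol), which leaves 111. Another gene list is not reported here. Protein paralog pairs planned for this comparison were not run because no protein sequences were used here.

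Alternatives were 2-fold and 8-fold thresholds, no filter, a filter at the 75th percentile (8.82), a second quantile normalization, centring on the median of brighter genes, and a floor at the 25th percentile (5.07). Python 3.11.15, pandas 2.3.3, NumPy 2.4.6 and matplotlib 3.10.9 were used.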

Additional observations from a re-analysis of the deposited data

Results flagged for a closer look

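Probe sets without a gene name stayed outside every comparison above. Of 2021 such probe sets 794 passed the filter on dim signals, 55 were at least 4-fold higher at 3w+Dox and 34 at least 4-fold lower. Those shares, 6.93% and 4.28% of the kept ones, were not above the 7.63% and 5.09% of all kept genes, and the probe sets are given only because no comparison used them. Probe set 14118 read 5.41 at Day0, 12.21 at 3w+Dox, 11.95 after withdrawal and 8.89 in iPS cells, and probe set 18787 read 6.98, 12.84, 12.87 and 11.01. Probe set 14262 read 12.90, 5.73, 6.24 and 4.82, and probe set 70008 read 11.06, 5.49, 5.63 and 4.81. The first pair was higher in both cultures than at Day0 and the second lower.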

How the results depend on the processing

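No paired analysis was possible because each population has 1 array. The counts of genes that rose and fell moved from 1000 and 667 to 2010 and 1743 at 2-fold and to 505 and 251 at 8-fold. Families called in both directions numbered 13 at 8-fold against 35, and symbol stems called in both directions 190 at 2-fold and 11 at 8-fold against 54. With the filter at the 75th percentile 420 genes fell, since fewer genes were tested. With no filter, a second quantile normalization, centring or a floor, counts stayed between 975 and 1021 up and between 653 and 683 down, and the share of calls that were rises ran from 53.6% to 66.8% over all settings, against 60%. Of the 344 family and pathway genes called at 4-fold, 165 were still called at 8-fold, 252 with the filter at the 75th percentile, 338 after a second quantile normalization, 340 after centring and 332 with the floor. Of those named in the text, Cp, P2rx2, Sema3c and Tnfsf10 lost the call under the second normalization, Sema3c under centring, and Agbl4, Car10, Dnah7a, Kcnab1, Pgr and Tlr6 under the floor. Of 546 list medians 511 stayed within 0.5 and 35 moved further, and 20 lists changed sign under some setting. The widest of these changes stand beside the lists. The median of neuroendocrine markers went from -0.93 to 5.23 under the stricter filter, which is the value of Ncam1 and no shift of the list. Under a second quantile normalization or centring, the median of antioxidant enzymes (-0.02) or of calcium and TRP channels (0.01) changed sign. Genes dim on 1 array have no exact fold.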
